A study of Mus musculus with 6 samples.

Results

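The DNA replication and nucleotide supply genes are 40 genes that code for the proteins that load and run the replication fork, the enzymes that make deoxynucleotides, and factors that restore chromatin behind the fork. They were picked by symbol, and all 40 were found among the 35410 genes whose values could be read from the deposited table. Bone marrow-derived macrophages (BMDMs) from C57BL/6 mice, grown from femoral marrow for 7 days with 10 ng/ml M-CSF, were left untreated (Ctrl, 3 libraries) or stimulated with zoledronic acid (ZA, 3 libraries) and sequenced 12 h later. ZA is a nitrogen-containing bisphosphonate that blocks farnesyl diphosphate synthase, an enzyme of the mevalonate pathway. The ZA concentration used for these libraries is not stated. The labels do not say whether libraries of one group came from separate animals or cultures, so p-values measure only the spread between these libraries. Wild-type C57BL/6 mice were obtained as females aged 6 weeks, the age at which marrow was taken is not stated, and no genetic change is named in the labels.

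Before a cell copies its DNA, the origin recognition complex, Cdc6 and Cdt1 load the ring-shaped Mcm2 to Mcm7 helicase onto chromatin, a step called licensing. In S phase Cdc45 and the GINS complex turn the ring into an active helicase, polymerase alpha with primase starts each strand, polymerases delta and epsilon extend it, and the clamp PCNA, placed by the RFC loader, holds the polymerases on the template. Ribonucleotide reductase, thymidylate synthase, thymidine kinase and dUTPase set the deoxynucleotide supply. Most of these genes are transcribed in late G1 and S phase under E2F factors. Macrophages grown with M-CSF, the growth factor that keeps them alive and drives their division, contain dividing cells, and proliferation ends as the cells mature.

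The library totals were between 41230600 and 42155808 fragments, and the smallest fragment number of a tested member in any library was 81. FPKM is the number of fragments divided by gene length and library total, so that levels of different genes can be compared per length. Macrophage genes marked the cells: the summed FPKM of 8 macrophage markers, among them Lyz2, Csf1r and Adgre1, was between 23499 and 27867 in the 6 libraries, most of it from Lyz2. Csf1r, the receptor for M-CSF, had 777, 767 and 772 FPKM in Ctrl and 825, 832 and 848 FPKM in ZA, and Adgre1, which codes for F4/80, had 538, 526 and 532 FPKM in Ctrl and 567, 582 and 593 FPKM in ZA. Both were higher in every ZA library, with adjusted p = 0.0699 and 0.0785 from limma, which missed the threshold. Among the other macrophage markers, Itgam, Mrc1, Mertk, Lyz2 and Fcgr1 had overlapping groups, and the mean of Mertk was lower in ZA. Cd68 was higher in every ZA library, by 1.21% of the Ctrl mean. Markers of neutrophils and their progenitors summed to between 39.99 and 56.1 FPKM in Ctrl and between 35.9 and 41.03 FPKM in ZA, and 13 of the 14 had a lower mean in ZA, while Ly6g was at 0 in all libraries. In that list Mpo, Elane, Prtn3 and Ngp, genes of granule proteins of young myeloid cells, were lower at an unadjusted p under 0.05 from limma. Of the 8 that reached the filter, 0 passed the adjusted test in all libraries, and 1 (Mpo) without ZA 1. Of 6 stromal markers, 5 had a lower mean in ZA, with sums between 18.5 and 33.1 FPKM in Ctrl and between 16.6 and 23.6 FPKM in ZA, and Cxcl12 and Dcn were lower at an unadjusted p under 0.05. Erythroid, B cell, T and NK cell, and mast cell or basophil markers each summed to at most 3.58 FPKM in any library, with the mast cell genes Cma1 and Tpsb2 at 0 in all 6. The part of other cells in the results that follow was not tested, and in bulk RNA fewer cells that replicate DNA and less RNA in each such cell cannot be told apart.

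The members, which were chosen with earlier results of these data known, were on balance expressed at slightly lower levels in ZA-treated BMDMs. Pcna, the sliding clamp, Mcm5, a helicase subunit, and Rrm2, the small subunit of ribonucleotide reductase, fell, by 10.8%, 22.4% and 24.0% of the Ctrl mean FPKM. No member rose. Of the 34 members with a mean FPKM of at least 1, which were tested, 26 had a lower and 8 a higher mean of log2(FPKM + 1) in ZA, or 76.5% lower, where 43.1% of all genes tested were lower. The other 6 members, Orc1, Cdc6, Cdc45, Mcm10, Pole and Tyms, lay under this filter.

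The test was limma on log2(FPKM + 1), two-sided, with Benjamini-Hochberg adjustment over all 9797 genes tested. Pcna, Mcm5 and Rrm2 had an adjusted p under 0.05, where the background was 0.163% of all genes tested for lower, 0.204% for higher and 0.367% for either direction. At an unadjusted p under 0.05, 14 of the 34 members were lower, or 41.2%, where the background was 4.85%, and 0 were higher, where the background was 7.50%. In 13 of the 34 members every ZA library lay under every Ctrl library, with a background of 6.76%, and in 0 members every ZA library lay above, with a background of 11.4%. The median difference in log2(FPKM + 1) was -0.084 over the members and 0.010 over all genes. Since the members were chosen with earlier results known, their shares beside the background are a description of this list. Over 54 other tested genes of the pathway the median was 0.0082. The adjusted calls rested on nearly all libraries. Without Ctrl 1, Ctrl 2, Ctrl 3, ZA 2 or ZA 3, 0 members passed the adjusted test, and without ZA 1 only Pcna did, and between 10 and 15 members were lower at an unadjusted p under 0.05. With no filter on low FPKM, or with a variance prior that ignores the expression level, 0 members passed the adjusted test, and 13 were lower at an unadjusted p under 0.05 in each. With quantile normalization Pcna missed the threshold (adjusted p = 0.0519), and Mcm5 and Rrm2 passed. With limma-voom on the recovered fragment counts 5 members passed, with Mcm6 and Uhrf1 beside the other 3.

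**Figure D1:**
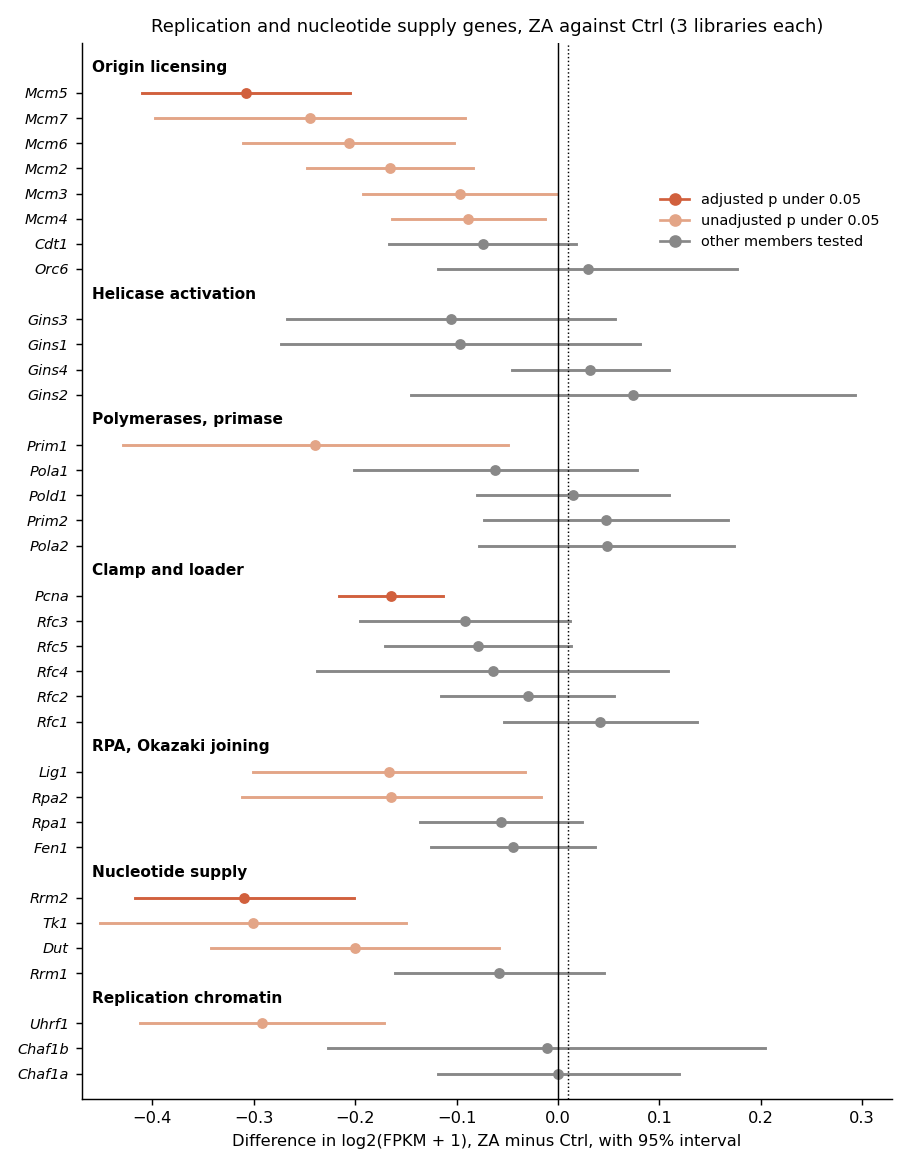
Difference in log2(FPKM + 1) between ZA and Ctrl (points, x axis) with its 95% interval from limma (lines) for the 34 members tested, grouped by role; the dotted line marks the median of all genes tested. The intervals of 14 members lie under 0, with 6 of them in origin licensing and 3 in nucleotide supply, and no interval lies above 0.

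The promoters of the 3 members with the smallest p and of Chaf1a, the member with the smallest moderated statistic, are shown to set side by side the start regions of genes that moved and of one that did not pass the test. Each sequence is the 250 bases before the start of the gene in RefSeq (GRCm38.p6), read 5′ to 3′ on the strand of the gene, and capitals mark matches, on either strand, to the E2F-type words TTTCCCGC, TTTGGCGC and TTTCGCGC, to CCAAT, or to the GC box GGGCGG. The word TTTGAA of the cell cycle homology region was also searched.
Pcna, chr2:132253181-132253430, minus strand: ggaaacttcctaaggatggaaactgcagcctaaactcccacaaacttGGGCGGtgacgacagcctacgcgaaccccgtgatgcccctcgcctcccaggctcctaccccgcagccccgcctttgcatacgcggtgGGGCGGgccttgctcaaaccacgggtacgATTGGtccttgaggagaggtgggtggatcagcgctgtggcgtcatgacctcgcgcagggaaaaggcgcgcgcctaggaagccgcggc
Mcm5, chr8:75109259-75109508, plus strand: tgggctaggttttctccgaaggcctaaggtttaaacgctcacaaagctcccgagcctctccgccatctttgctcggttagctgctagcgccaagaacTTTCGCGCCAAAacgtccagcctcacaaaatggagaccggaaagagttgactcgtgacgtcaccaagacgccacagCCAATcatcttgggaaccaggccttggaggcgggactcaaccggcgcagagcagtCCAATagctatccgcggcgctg
Rrm2, chr12:24708004-24708253, plus strand: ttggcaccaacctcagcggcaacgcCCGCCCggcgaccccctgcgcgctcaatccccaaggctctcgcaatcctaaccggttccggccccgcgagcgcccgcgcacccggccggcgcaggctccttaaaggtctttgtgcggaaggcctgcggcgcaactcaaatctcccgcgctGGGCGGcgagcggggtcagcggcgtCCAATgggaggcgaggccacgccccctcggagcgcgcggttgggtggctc
Chaf1a, chr17:56040166-56040415, plus strand: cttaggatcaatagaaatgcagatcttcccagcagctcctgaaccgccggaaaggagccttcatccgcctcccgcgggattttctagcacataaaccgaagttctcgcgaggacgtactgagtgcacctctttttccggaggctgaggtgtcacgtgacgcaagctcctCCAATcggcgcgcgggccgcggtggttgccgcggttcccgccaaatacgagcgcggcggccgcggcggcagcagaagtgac

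The Mcm5 promoter held 2 overlapping E2F-type matches, which begin 153 and 149 bases before the start and face opposite strands, and 2 CCAAT words. Pcna and Rrm2 each held 1 CCAAT word and 2 GC boxes, and Chaf1a held 1 CCAAT word. None of these 4 windows held TTTGAA. RefSeq promoters were at hand for 33 of the 40 members. An E2F-type word stood in 9 of them (27.3%), namely Orc1, Cdc6, Mcm5, Mcm6, Mcm7, Gins3, Pola1, Rfc3 and Uhrf1, and in 1.78% of all 27025 genes with a promoter. CCAAT was found for 63.6% of the members and 37.5% of all genes, the GC box for 69.7% and 35.4%, and TTTGAA for 12.1% and 18.3%. Of the members that were lower at an unadjusted p under 0.05, 4 of 13 with a promoter (30.8%) held an E2F-type word, beside 5 of the other 20 (25.0%). These matches describe letters in the window, not binding. Only the exact E2F-type words named above were searched, so other forms of such a site, in Chaf1a or elsewhere, were neither marked nor counted.

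**Figure D2:**
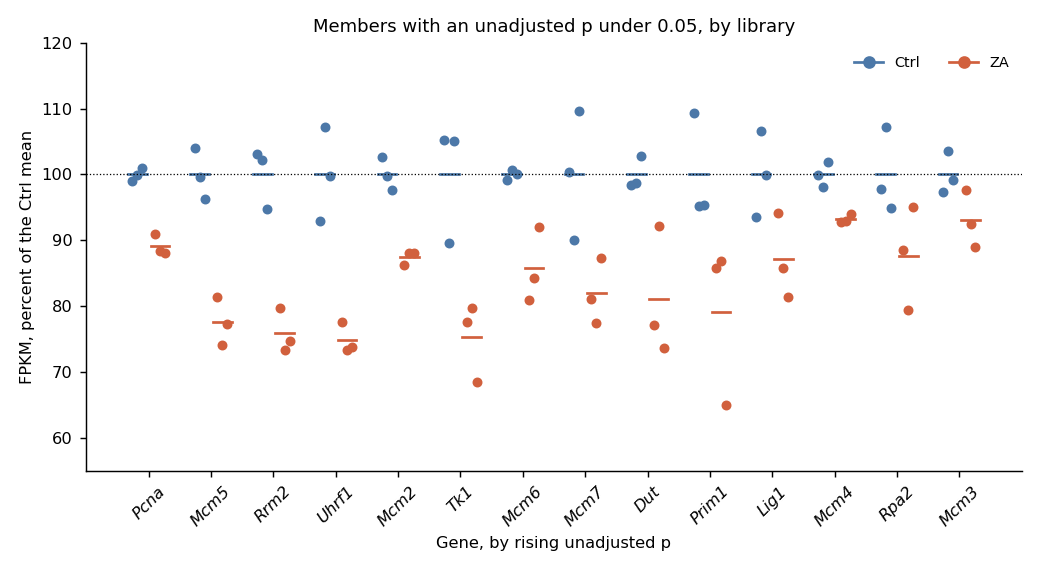
FPKM of each library as a percentage of the Ctrl mean of the gene (y axis, which starts at 55) for the 14 members with an unadjusted p under 0.05, ordered by p; points are libraries and short lines are group means. The ZA points lie under all Ctrl points except in Lig1, Rpa2 and Mcm3, where one or more overlap.

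Origin licensing held the largest group of lower members. Mcm5 had an FPKM of 6.26, 5.99 and 5.79 in Ctrl and 4.89, 4.46 and 4.65 in ZA. Its groups did not overlap, and the difference in log2(FPKM + 1) was -0.31 ± 0.045 (SE; 95% interval -0.41 to -0.20; adjusted p = 0.0487). The other 5 subunits of the hexamer were also lower, none of them with an adjusted p under 0.05. Mcm6 had 13.4, 13.6 and 13.5 FPKM in Ctrl and 10.9, 11.4 and 12.4 FPKM in ZA, a difference of -0.21 ± 0.045 (adjusted p = 0.112). Mcm2, with 6.46, 6.28 and 6.15 FPKM in Ctrl and 5.43, 5.54 and 5.55 FPKM in ZA, differed by -0.17 ± 0.036 (adjusted p = 0.112). Mcm7 had 6.90, 6.20 and 7.54 FPKM in Ctrl and 5.58, 5.33 and 6.005 FPKM in ZA (-0.24 ± 0.067; adjusted p = 0.203). In these 3 genes each ZA library was under each Ctrl library, though Mcm7 spread widely in Ctrl. Mcm4, with 7.52, 7.39 and 7.67 FPKM in Ctrl and 6.98, 6.995 and 7.07 FPKM in ZA, had a smaller difference (-0.089 ± 0.033; adjusted p = 0.339) and groups that did not overlap. Mcm3 had 12.5, 13.3 and 12.7 FPKM in Ctrl and 12.5, 11.9 and 11.4 FPKM in ZA, and its ZA 1 library reached into the Ctrl range (-0.097 ± 0.041; adjusted p = 0.397).

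The 6 subunits form a ring with 1 copy of each, and their summed FPKM was 53.0 ± 0.318 (SD, n = 3) in Ctrl and 46.3 ± 0.769 (SD, n = 3) in ZA. Per length, Mcm6 and Mcm3 had the highest levels of the 6 in Ctrl, and Mcm5 the lowest mean. The Ctrl values of Mcm5 overlapped with those of Mcm2 and Mcm7. Mcm5 made up 11.3% ± 0.478 of the sum in Ctrl and 10.1% ± 0.425 in ZA (mean ± SD of 3 libraries).

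**Figure D3:**
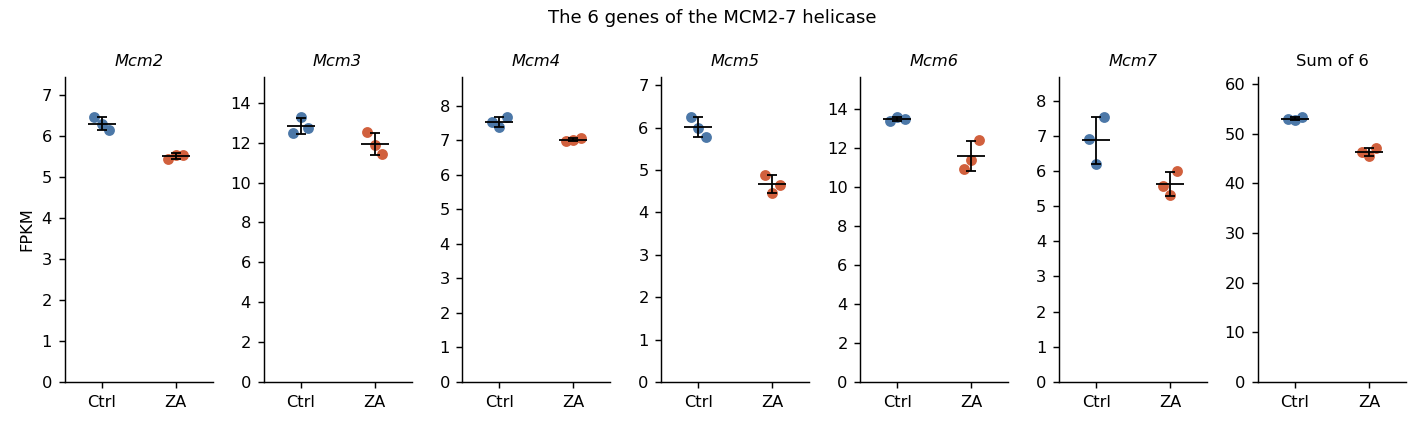
FPKM (y axis, from 0) of the 6 helicase genes and of their sum in Ctrl and ZA; points are libraries, and the cross bar and whiskers are the mean and SD of 3 libraries. The sum lies between 52.7 and 53.4 in Ctrl and between 45.6 and 47.1 in ZA, and only Mcm3 has overlapping groups.

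Of the loading factors around the ring, Cdt1 and Orc6 did not pass the test, and Orc1 and Cdc6 were not tested in the reported analysis. Cdt1, which brings the helicase to the origin, had the highest level of this group, with 16.9, 15.98 and 15.6 FPKM in Ctrl and 14.9, 15.1 and 15.97 FPKM in ZA, and its ZA 3 library lay among the Ctrl values (-0.074 ± 0.040; 95% interval -0.17 to 0.018; adjusted p = 0.490). Orc6, a subunit of the origin recognition complex, had 3.57, 3.88 and 3.60 FPKM in Ctrl and 3.81, 4.17 and 3.38 FPKM in ZA, with ZA libraries on both sides of Ctrl (95% interval -0.12 to 0.18). Orc1, the largest subunit, had 0.183, 0.295 and 0.183 FPKM in Ctrl and 0.177, 0.144 and 0.220 FPKM in ZA, from 18 to 37 fragments. Cdc6, the ATPase that works with the origin recognition complex, had 0.476, 0.633 and 0.585 FPKM in Ctrl and 0.415, 0.492 and 0.347 FPKM in ZA, from 70 to 126 fragments. Both lay under the filter with overlapping groups. The mean of Cdc6 was 26.0% lower in ZA. With no filter, Cdc6 was lower at an unadjusted p under 0.05 from limma, and 0 members passed the adjusted test.

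The factors that activate the helicase showed no common direction, with 2 of 4 tested members under and 2 above 0 and 0 past an unadjusted p under 0.05. Gins4 had the highest level, with 14.8 FPKM in each Ctrl library and 15.7, 14.6 and 15.2 FPKM in ZA (0.032 ± 0.034; 95% interval -0.046 to 0.11). Gins2 had 4.86, 6.63 and 6.41 FPKM in Ctrl and 6.19, 5.98 and 6.70 FPKM in ZA, and Ctrl 1 alone was low (0.074 ± 0.095; 95% interval -0.14 to 0.29). Gins1 and Gins3, which belong to the same complex, differed by -0.096 ± 0.077 and -0.11 ± 0.070, and their groups overlapped. Cdc45, the helicase partner, had 0.814, 0.983 and 1.08 FPKM in Ctrl and 0.884, 1.04 and 0.673 FPKM in ZA. Mcm10, which takes part in firing of the origin, had 0.780, 0.584 and 0.883 FPKM in Ctrl and 0.600, 0.910 and 0.794 FPKM in ZA. Both were under the filter and overlapped between groups.

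Among polymerases and primase, Prim1, the catalytic subunit of primase, had the one difference at an unadjusted p under 0.05. It had 2.86, 2.49 and 2.50 FPKM in Ctrl and 2.25, 2.27 and 1.70 FPKM in ZA, and all ZA libraries were under Ctrl, with ZA 3 the lowest (-0.24 ± 0.083; adjusted p = 0.302). Its partner Prim2 had a difference of 0.048 ± 0.052 (95% interval -0.072 to 0.17). The difference between the differences of the 2 primase genes was not tested. Pola2, a subunit of polymerase alpha, had the highest mean level of the group but overlapped with Pold1, with 3.63, 3.40 and 3.40 FPKM in Ctrl and 3.67, 3.90 and 3.33 FPKM in ZA. Pold1, the catalytic subunit of polymerase delta, had 3.43, 3.36 and 3.40 FPKM in Ctrl and 3.58, 3.33 and 3.43 FPKM in ZA, and its groups overlapped (95% interval of the difference -0.080 to 0.11). Pola1, the catalytic subunit of polymerase alpha, differed by -0.062 ± 0.061. Pole, the catalytic subunit of polymerase epsilon, lay under the filter with 0.599, 0.614 and 0.521 FPKM in Ctrl and 0.425, 0.543 and 0.443 FPKM in ZA, where ZA 2 reached above Ctrl 3.

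Pcna had by far the highest level of the 40 genes, with 177, 178 and 180.1 FPKM in Ctrl and 162, 158 and 157 FPKM in ZA. The groups were apart by more than the spread in either, and the difference in log2(FPKM + 1) was -0.16 ± 0.022 (SE; 95% interval -0.22 to -0.11; adjusted p = 0.0453). Pcna alone was 42.9% ± 0.210 of the summed FPKM of the 40 members in Ctrl and 41.8% ± 0.521 in ZA (mean ± SD of 3 libraries). The 5 subunits of the clamp loader had smaller differences, and 0 of them had an unadjusted p under 0.05. Rfc2 followed Pcna in level, with 32.4, 31.4 and 33.5 FPKM in Ctrl and 30.4, 31.9 and 33.0 FPKM in ZA, and its groups overlapped (-0.030 ± 0.037; 95% interval -0.11 to 0.055). Rfc3, Rfc4 and Rfc5 differed by -0.092, -0.064 and -0.078, and Rfc1, the large subunit, by 0.042. Of the 5, Rfc5 alone had ZA libraries (7.44, 7.16 and 7.10 FPKM) all under the Ctrl libraries (7.56, 7.47 and 8.07 FPKM), by a narrow margin.

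Of the genes for single-strand binding and joining of Okazaki fragments, 4 of 4 tested had differences under 0. Lig1, the ligase that seals the fragments, had 5.17, 5.89 and 5.52 FPKM in Ctrl and 5.20, 4.74 and 4.503 FPKM in ZA (-0.17 ± 0.058; adjusted p = 0.303). Rpa2, the middle subunit of replication protein A, had 6.46, 7.09 and 6.27 FPKM in Ctrl and 5.85, 5.25 and 6.28 FPKM in ZA (-0.16 ± 0.064; adjusted p = 0.356). In each of these 2 genes 1 ZA library reached the lowest Ctrl value. Rpa1, the large subunit, had the highest level, with 14.9, 15.98 and 14.9 FPKM in Ctrl and 14.8, 14.6 and 14.6 FPKM in ZA, groups that were apart by a narrow margin (95% interval -0.14 to 0.024). Fen1, the nuclease that trims the flap, had 11.1, 11.6 and 10.9 FPKM in Ctrl and 10.7, 10.7 and 11.1 FPKM in ZA (95% interval -0.13 to 0.037).

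The enzymes of nucleotide supply had the lowest median of the 7 groups, -0.25 on the scale of log2(FPKM + 1) over 4 tested members. Rrm2, the reductase subunit whose level limits the enzyme in S phase, had 4.23, 4.19 and 3.89 FPKM in Ctrl and 3.27, 3.01 and 3.07 FPKM in ZA. The groups were far apart, and the difference was -0.31 ± 0.047 (SE; 95% interval -0.42 to -0.20; adjusted p = 0.0487). Tk1, the cytosolic thymidine kinase of S phase, had 3.39, 2.88 and 3.38 FPKM in Ctrl and 2.50, 2.56 and 2.20 FPKM in ZA (-0.30 ± 0.066; adjusted p = 0.112). Dut, the dUTPase that keeps uracil out of DNA, had 2.04, 2.05 and 2.13 FPKM in Ctrl and 1.603, 1.91 and 1.53 FPKM in ZA (-0.20 ± 0.062; adjusted p = 0.255), from 81 to 112 fragments. All ZA libraries were under Ctrl in both. Rrm1, the large reductase subunit, had the highest level, with 10.9, 10.8 and 10.5 FPKM in Ctrl and 10.8, 9.57 and 10.5 FPKM in ZA, and overlapping groups (-0.058 ± 0.045; 95% interval -0.16 to 0.045). Tyms, thymidylate synthase, was under the filter with 0.570, 0.567 and 0.677 FPKM in Ctrl and 0.605, 0.567 and 0.531 FPKM in ZA, without a separation.

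Rrm2b, which codes for the other small subunit of the reductase, a p53 target that serves cells outside S phase, was singled out after its values were seen. It had 3.299, 3.34 and 3.23 FPKM in Ctrl and 4.14, 3.46 and 3.83 FPKM in ZA, and all ZA libraries were above Ctrl (0.16 ± 0.056; adjusted p = 0.303). Rrm2 was 55.5% ± 0.772 of the summed Rrm2 and Rrm2b FPKM in Ctrl and 45.04% ± 1.31 in ZA (mean ± SD of 3 libraries). This share is a description, since Rrm2b was chosen for its values.

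**Figure D4:**
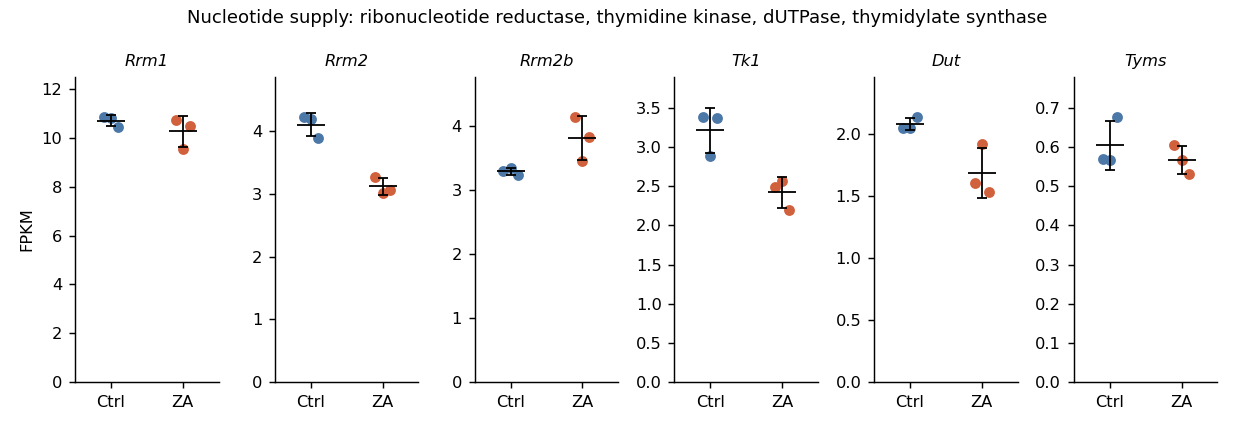
FPKM (y axis, from 0) of 6 genes of deoxynucleotide supply in Ctrl and ZA; points are libraries, and the cross bar and whiskers are the mean and SD of 3 libraries. Rrm2, Tk1 and Dut lie lower and Rrm2b higher in every ZA library than in any Ctrl library, while Rrm1 and Tyms overlap.

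In replication chromatin, Uhrf1, which guides the maintenance DNA methyltransferase to hemimethylated DNA, had 2.54, 2.93 and 2.73 FPKM in Ctrl and 2.12, 2.01 and 2.02 FPKM in ZA. Its groups did not overlap, and the mean was lower by 25.1% in ZA, a decrease that missed the adjusted threshold (-0.29 ± 0.052; adjusted p = 0.0770). Chaf1a, the large subunit of the chromatin assembly factor CAF-1, had 2.70, 2.87 and 2.48 FPKM in Ctrl and 2.65, 2.77 and 2.62 FPKM in ZA, with means of 2.68 FPKM in both groups (95% interval of the difference -0.12 to 0.12). Chaf1b, the middle subunit, had a mean of 2.49 ± 0.173 FPKM in Ctrl and 2.48 ± 0.463 FPKM in ZA (SD, n = 3; 95% interval of the difference -0.23 to 0.20).

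The deposited files do not say whether fragments were counted by strand. In the GENCODE annotation, exons of 11 members share bases with a protein-coding gene on the opposite strand, among them Mcm7 with Cops6 and Ap4m1, Tk1 with Afmid, Lig1 with Zswim9, Rfc2 with Lat2 and Chaf1a with Ubxn6. Without strand, fragments in the shared bases cannot be assigned. Rfc2 shares 952 exon bases with Lat2 (mean 59.5 FPKM), and Chaf1a shares 4648 with Ubxn6 (mean 15.6 FPKM). Rfc5 shares 499 with Wsb2 (mean 93.2 FPKM), Orc6 171 with Vps35 (mean 83.4 FPKM) and Gins2 2758 with Gse1 (mean 3.05 FPKM). The levels and differences given for the 11 members may therefore hold fragments of their neighbours, which was not tested. Shared bases were counted over all annotated transcripts. For Chaf1a and Gins2 they exceed the gene lengths behind the FPKM values, 3308 and 1038 bases. Pcna, Mcm5, Rrm2 and Uhrf1 share no exon bases with another gene there.

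A further 71 genes of replication and nucleotide synthesis were read beside the members. Among the 54 that passed the filter, 2 were lower at an unadjusted p under 0.05 from limma (3.70%, background 4.85%). At the same threshold 5 were higher, with a background of 7.50%. The adjusted test was passed by 0 (1, Nme1, with voom), and the median difference was 0.0082. Nme1, a nucleoside diphosphate kinase, came nearest to the threshold, with 30.7, 30.5 and 29.7 FPKM in Ctrl and 25.1, 27.1 and 25.2 FPKM in ZA (-0.23 ± 0.035; adjusted p = 0.0510). Pclaf, a PCNA-binding protein, had 2.64, 2.43 and 3.38 FPKM in Ctrl and 1.99, 1.92 and 2.01 FPKM in ZA (-0.35 ± 0.085; adjusted p = 0.152). Both had groups that did not overlap. Pold4, the smallest subunit of polymerase delta, had 10.9, 9.27 and 9.30 FPKM in Ctrl and 12.6, 11.6 and 11.02 FPKM in ZA, each ZA library above Ctrl (0.23 ± 0.067; adjusted p = 0.228). By role, the median difference was 0.029 over 10 other initiation genes, -0.00053 over 15 other fork genes, -0.0019 over 14 genes of pyrimidine and deoxynucleotide metabolism, 0.0035 over 10 genes of purine synthesis and 0.0036 over 5 chromatin genes.

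Most genes of mitosis had differences under 0, and those of the G1 to S transition were split evenly. Of 22 mitosis genes tested, 19 had a difference under 0 (86.4%, against 43.1% of all genes), with a median of -0.076. At an unadjusted p under 0.05 from limma, 5 were lower (22.7%, background 4.85%) and 0 higher (background 7.50%). The adjusted test was passed by 0, also with voom. Ccna2, the cyclin of S phase and G2, had 2.61, 2.21 and 2.57 FPKM in Ctrl and 1.66, 1.99 and 1.71 FPKM in ZA, without overlap (-0.31 ± 0.067; adjusted p = 0.110). Ccnb2, a mitotic cyclin, and Ube2c, a ubiquitin-conjugating enzyme of the anaphase-promoting complex, differed by -0.23 ± 0.073 and -0.18 ± 0.059 (adjusted p = 0.262 and 0.283). Of 24 G1 to S genes tested, 12 lay under and 12 above 0, with a median of -0.0024. At the same unadjusted threshold 1 was lower (4.17%, background 4.85%) and 2 were higher (background 7.50%). The adjusted test was passed by 0, or by 1 (Cdkn1a) with voom. Cdkn1a, which codes for the cyclin-dependent kinase inhibitor p21, had 19.5, 19.9 and 19.8 FPKM in Ctrl and 23.7, 22.6 and 21.8 FPKM in ZA (0.19 ± 0.034; adjusted p = 0.0760). Ccnd1 and Ccnd3, cyclins of G1, differed in opposite directions, by -0.25 ± 0.068 and 0.11 ± 0.028 (adjusted p = 0.203 and 0.178), and in all 3 genes the groups did not overlap. The differences between these lists and the members were not tested.

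**Figure D5:**
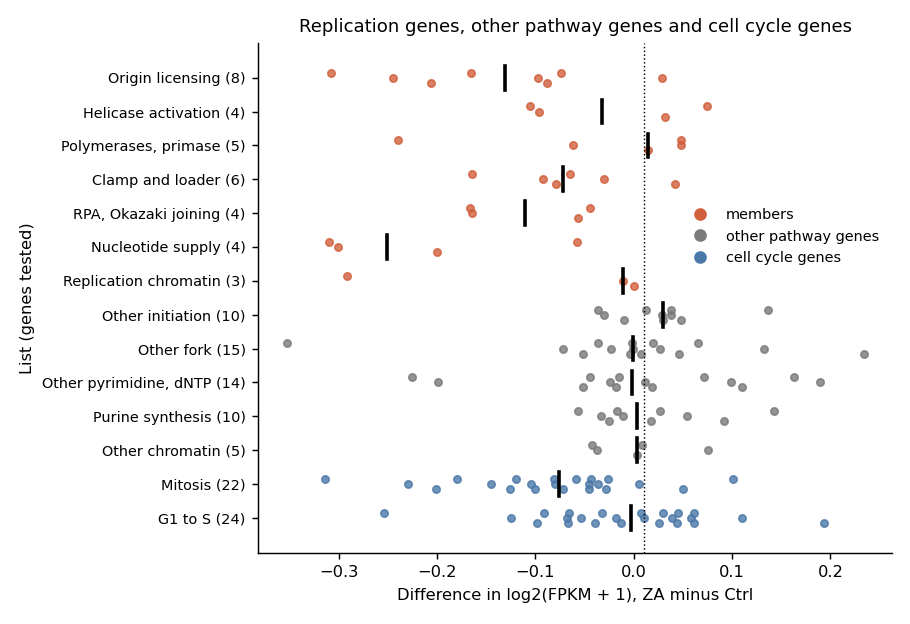
Difference in log2(FPKM + 1) between ZA and Ctrl (x axis) for each tested gene of the 7 member groups, 5 lists of other pathway genes and 2 cell cycle lists, with the number of genes tested beside the name; black bars are list medians and the dotted line is the median of all genes. Nucleotide supply has the lowest median (-0.25) and origin licensing the next (-0.13), while the medians of the other pathway lists lie between -0.0019 and 0.029.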

How the data were processed

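RNA from 3 Ctrl and 3 ZA libraries of mouse BMDMs, taken 12 h after stimulation, was measured by paired-end sequencing. The authors deposited 1 table of FPKM values. The submitters' processing notes name mm9. The aligner, counting program and annotation are not given in the sources used here. In 11 of 35434 rows all separators were present. In the rest symbol and values run together. They were split where the digits allow, and where more than one reading fitted, by whole fragments at a common gene length. This left 35410 rows, with 24 left out and none of them a member, and gave the library totals. Groups and replicate numbers came from the labels.

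The test was run on log2(FPKM + 1) of all genes whose FPKM averaged at least 1. It used the functions lmFit and eBayes (trended prior) of limma 3.58.1 under R 4.3.3, two-sided and with Benjamini-Hochberg adjustment. A pseudocount of 1 understates changes of low genes. Errors are SE, and intervals are 95%. Where a value is given as ± SD, n is 3. The tested genes had a median of 1394 fragments per library. The comparison was tested on simulated data. No library was a copy of another of its group (chi-square per gene between 3.52 and 9.72).

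The members and lists were chosen with earlier results of these data known. Values of each library are given for members with an unadjusted p under 0.05, members under the filter and, in each group, the member with the smallest moderated statistic and that with the highest level. Of the other lists, the 3 genes of each kind with the largest statistic are named. The symbol Adss2 is Adss in the table. Promoters came from RefSeq (GRCm38.p6) and overlapping genes from GENCODE vM21, whose build differs from mm9, so both were matched by symbol. The alternatives were a pseudocount of 0.1, no filter, a mean FPKM of at least 5, centring on the median, quantile normalization, a prior without trend, the replicate block, voom on the recovered fragments, and leaving out each library. Python 3.11.15 with NumPy 2.4.6, pandas 2.3.3, SciPy 1.17.1 and Matplotlib 3.10.9 was used.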

Additional observations from a re-analysis of the deposited data

How the results depend on the processing

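Direction held in all 14 alternatives for each of the 14 members that were lower at an unadjusted p under 0.05, wherever they were tested, and 0 members were higher at that threshold in any of them. The number of members with an adjusted p under 0.05 (3 in the reported analysis) was 0 with no filter and with a prior without trend, 2 with quantile normalization (Mcm5 and Rrm2, with Pcna at an adjusted p of 0.0519), 2 at a minimum mean FPKM of 5 (Pcna and Mcm5, with Rrm2 under the filter), 5 with voom on the recovered fragments (Mcm6 and Uhrf1 besides Pcna, Mcm5 and Rrm2), and 0 to 1 when 1 library was left out. Nme1 passed at a minimum mean FPKM of 5 and with voom, and Cdkn1a with voom. The number of all genes past this threshold was 1 with no filter, 20 with quantile normalization, 1 with a prior without trend and 132 with voom, and 0 to 25 when 1 library was left out. Of these calls, 16 of 36 were lower in ZA in the reported analysis, 18 of 28 after centring on the median and 10 of 20 after quantile normalization. The background at an unadjusted p under 0.05 also depended on scaling. It was 4.85% lower and 7.50% higher in the reported analysis, and 6.81% and 5.18% after centring. After quantile normalization it was 6.01% and 5.86%. In these 2 alternatives 14 and 16 members were lower at that threshold. Without ZA 2, where 0 genes passed, 416 genes were lower at an unadjusted p under 0.05. A mean FPKM of at least 5 left 19 members, of which 9 were lower at an unadjusted p under 0.05, because fewer genes were tested.

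The median over the members was -0.10 with voom and between -0.097 and -0.072 in the other alternatives. The group medians moved by more than the spread between libraries as follows. Origin licensing had -0.15 with a pseudocount of 0.1, -0.12 with no filter, -0.17 at a minimum mean FPKM of 5, -0.14 with centring, -0.14 with quantile normalization and -0.15 with voom, and -0.14 to -0.13 when 1 library was left out. The clamp and loader had -0.085 with a pseudocount of 0.1, -0.084 with centring, -0.085 with quantile normalization and -0.086 with voom, and -0.075 to -0.053 when 1 library was left out. Nucleotide supply had -0.34 with a pseudocount of 0.1, -0.20 with no filter, -0.058 at a minimum mean FPKM of 5, where Rrm1 alone is left, and -0.35 with voom, and -0.28 to -0.21 when 1 library was left out. Polymerases and primase had -0.024 with no filter. Replication chromatin had -0.096 to 0.029 when 1 library was left out. The other pathway genes had -0.0043 with centring and -0.0059 with quantile normalization. Centring moves the differences of all genes by the same amount, and the filters change which genes are counted. The cause of the other moves was not tested.

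When the replicate number entered as a block, 78 genes passed, 3 of them members (Pcna, Mcm5 and Rrm2), and 12 members were lower at an unadjusted p under 0.05. Nme1, Pold4 and Ccnd1 also passed with the block. Same-numbered libraries deviated together with correlations across genes of 0.284, 0.0394 and 0.280, so that number 2 showed little shared deviation, and the numbers were not taken to pair the libraries. Each library correlated best with its own number, with differently numbered libraries between -0.297 and 0.0334. Depth is lowest for Orc1, with at most 37 fragments in a library, and among tested members for Dut, with 81 to 112.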
